A study of Homo sapiens with 6 samples.

Results

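Sphingosine 1-phosphate (S1P) is a signaling lipid that cells make by phosphorylating sphingosine and that acts through G protein-coupled receptors on the cell surface. The sphingosine kinases make it, a phosphatase returns it to sphingosine, a lyase degrades it irreversibly, and a transporter carries it out of the cell. S1PR1 signals through Gi and is known for its roles in endothelial barrier function and lymphocyte egress, whereas S1PR2 and S1PR3 couple to further G proteins, among them one that activates phospholipase C. The expression of 9 genes of this system was examined in thyroid cancer cells after knockdown of GDF15, a secreted stress-responsive member of the TGF-β superfamily. They are the receptor genes S1PR1, S1PR2, S1PR3 and S1PR5, the kinase genes SPHK1 and SPHK2, the lyase gene SGPL1, the phosphatase gene SGPP1 and the transporter gene SPNS2. The 9 genes were matched by symbol among 34738 genes listed, and they were chosen by gene family with their values in these libraries already known. Their levels and differences are therefore given as a description, without a p-value.

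The study knocked down GDF15 by siRNA (siGDF15 group) beside a control group (NC), and 3 libraries of each were sequenced. The labels name the line KHM-5M for all 6 libraries, with the genotype given as control for NC, while a figure legend of the study names TPC-1. The control is called a negative control in the study's methods and a blank control in the deposited design, so an effect of transfection itself cannot be told apart from that of the knockdown. Both lines are established thyroid cancer lines, the labels give a single line, 1 siRNA was used against GDF15, and the time from transfection to RNA extraction is not given in the sources used here. GDF15 was measured at 22.4, 19.3 and 23.1 FPKM (fragments scaled by transcript length and by library size) in NC replicates 1 to 3 and at 10.8, 10.5 and 10.7 FPKM in siGDF15 replicates 1 to 3. It fell by 0.92 on the log2 scale (standard error 0.0792, adjusted p = 2.4e-05, edgeR's quasi-likelihood test). The siGDF15 libraries were all lower than the NC libraries, for which an exact two-sided permutation over libraries gives p = 0.1, its minimum with 3 per group.

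Total counts were 67569576 to 68025163 in NC and 51738814 to 67793417 in siGDF15, lowest in siGDF15 replicate 2. One read pair was taken as 4 counts, a set factor on which all numbers of read pairs here rest. Of the counts from 1 to 20, 15.6% were exactly 4. With this factor a count of 0 allows up to 12 counts, a limit that covers counting error only. Of the thyroid follicular cell markers, PAX8 was high in all libraries (NC 59.1 ± 5.33 and siGDF15 79.4 ± 1.70 FPKM, SD, n = 3) and FOXE1 was present (2.76 ± 0.208 and 2.83 ± 0.162 FPKM). The differentiation genes SLC5A5 and NKX2-1 were at or near 0, and TG did not exceed 0.219 FPKM in any library. In bulk RNA, fewer cells of a type and less RNA per cell cannot be told apart.

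Among the receptors, S1PR1 was the lowest of the 4 member genes in NC and the highest in siGDF15. S1PR3 and S1PR5 were lower in siGDF15, and S1PR2 had nearly the same mean in both groups. SPHK1 and SGPP1 were lower in siGDF15, SPHK2 had a log2 fold change of -0.23 and was not called, SGPL1 was slightly higher and SPNS2 overlapped between the groups. In edgeR's test, 7286 of the 11867 genes with a mean of at least 1 FPKM had an adjusted p under 0.05 (61.4%, with 30.0% higher and 31.4% lower in siGDF15). Of the 9 members, 7 were tested, and 5 of these were called, 2 higher (S1PR1 and SGPL1) and 3 lower (S1PR5, SPHK1 and SGPP1). When the log2 fold change also had to reach 1 or -1, 7.81% of tested genes and 1 member, S1PR1, were called. The median log2 fold change was -0.23 over the 7 tested members and 0.00 over all tested genes. These counts rest on the contrast that was known when the members were chosen, so nothing is read from them.

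S1PR1 (ENSG00000170989) lies on the plus strand of chromosome 1 from 101236865 to 101241518 of GRCh38. Its coding sequence of 382 codons sits in 1 of the 2 exons of transcript ENST00000305352.6. The window from 250 bases before to 50 bases after its RefSeq start site is shown because S1PR1 had the largest fold difference between groups of all members. Windows here are from RefSeq on GRCh38.p14, matched by symbol for 7 of the 9 members, written from 5′ to 3′ on the gene's strand, and capitals mark matches to 6 short motifs searched on both strands. The motifs were the GC box (GGGCGG), the CACCC box (CCACCC), the CCAAT box (CCAAT), the TATA box (TATAAA), the E-box (CACGTG) and the AP-1 site (TGANTCA). The S1PR1 window is chr1:101236769-101237068 on the plus strand.
S1PR1: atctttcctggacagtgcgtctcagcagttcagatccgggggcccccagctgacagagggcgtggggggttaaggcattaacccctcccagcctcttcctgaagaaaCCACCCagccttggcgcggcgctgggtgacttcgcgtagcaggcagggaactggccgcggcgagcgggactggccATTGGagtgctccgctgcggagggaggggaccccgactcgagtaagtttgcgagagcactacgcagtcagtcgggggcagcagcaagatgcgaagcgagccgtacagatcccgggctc
This window held 1 CACCC box, which 34.3% of all 35116 windows hold, and 1 CCAAT box, read on the other strand, which 34.6% hold. Its GC content was 64.7%, against a median of 58.7% over all windows. These matches are letters in a sequence, and binding of a factor was not measured.

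S1PR1 was measured at 0.479, 0.435 and 0.309 FPKM in NC replicates 1 to 3 and at 2.51, 2.62 and 2.73 FPKM in siGDF15 replicates 1 to 3. The groups lay far apart, with a gap wider than the whole range of either group. The means were 0.408 ± 0.0882 and 2.62 ± 0.110 FPKM (SD, n = 3), a 6.42-fold higher level. The log2 fold change was 2.78 (standard error 0.162). Its rank was 13 of 11867 tested genes from the highest, and nothing is read from it, as the contrast was known at the choice. The NC values rest on 31 to 48 read pairs and the siGDF15 values on 197 to 268 read pairs, so the NC level is the less precise. Its coefficient of variation was 21.6% in NC and 4.21% in siGDF15, beside medians over tested genes of 6.82% and 4.84%. S1PR1 reached the mean of 1 FPKM needed for the test only through the siGDF15 libraries. The estimate depended on the scale, from 1.36 with limma on log2(FPKM + 1), a scale that understates changes of low genes, to 2.91 without NC replicate 1.

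S1PR1 is abundant in endothelial cells and lymphocytes, so markers of these cells are given beside it. The summed level of 6 endothelial markers was 0.265 to 0.316 FPKM in NC and 0.428 to 0.520 FPKM in siGDF15, and none of the 6 reached a mean of 1 FPKM. CDH5, which encodes VE-cadherin, did not exceed 0.0188 FPKM in any library, KDR 0.0517 FPKM and VWF 0.0186 FPKM. TEK, the angiopoietin receptor of the same list, was at 0.118, 0.0736 and 0.182 FPKM in NC and at 0.395, 0.220 and 0.345 FPKM in siGDF15, with no overlap. It had a log2 fold change of 1.42 in the fit over genes of at least 0.1 FPKM (edgeR's adjusted p = 0.013). PECAM1 had 0.0890 ± 0.0234 and 0.128 ± 0.0310 FPKM (SD, n = 3), with libraries that overlapped. CLDN5 went the other way, at 0.0577, 0.0187 and 0.0309 FPKM in NC and at 0, 0.0100 and 0.0147 FPKM in siGDF15. Its groups did not overlap, but its values rest on only 0 to 16 counts. The summed level of the 5 leukocyte markers listed was 0.223 to 0.297 FPKM in NC and 0.676 to 0.863 FPKM in siGDF15, of which CD14 made up 0.199 ± 0.0797 and 0.671 ± 0.0742 FPKM (SD, n = 3). PTPRC, the pan-leukocyte marker CD45, did not exceed 0.00685 FPKM. Both marker sums were thus higher in siGDF15, at levels under 1 FPKM, and their part in the S1PR1 difference was not tested. Fibroblast markers summed to 17.0 to 22.8 FPKM in NC and 17.8 to 21.1 FPKM in siGDF15, and the 4 of 6 that were tested had log2 fold changes of 0.04 to 0.10. Epithelial markers summed to 108 to 160 FPKM in NC and 136 to 147 FPKM in siGDF15.

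The tested genes with the profiles most like that of S1PR1 over the 6 libraries were ELF3, CHST9 and C3. Likeness was the root mean square distance between log2 CPM profiles centred on their own mean, which was 0.137 for ELF3, 0.178 for CHST9 and 0.188 for C3. ELF3, an epithelial transcription factor of the ETS family, went from 1.23 ± 0.282 to 7.07 ± 1.02 FPKM (SD, n = 3). CHST9, a sulfotransferase, had 0.909 ± 0.105 and 4.81 ± 0.264 FPKM, and C3, the central complement component, had 10.5 ± 2.46 and 80.5 ± 3.37 FPKM. CHST9 reached a mean of 1 FPKM only through the siGDF15 libraries. The log2 fold changes were 2.62 for ELF3, 2.51 for CHST9 and 3.04 for C3, beside 2.78 for S1PR1. Likeness of this kind is largely a like difference between the groups, and shared regulation was not tested.

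**Figure D1:**
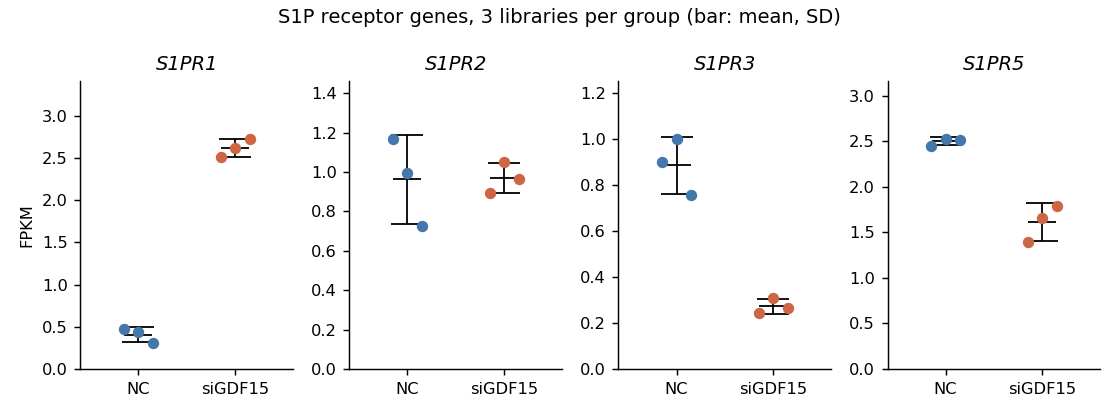
FPKM of the 4 member receptor genes in each library, with NC in blue and siGDF15 in orange, replicates 1 to 3 from left to right within a group, and bars for the mean and SD (n = 3) on axes that start at 0. The siGDF15 points of S1PR1 lie between 2.51 and 2.73 FPKM above all NC points, those of S1PR3 and S1PR5 lie below all NC points, and those of S1PR2 lie within the NC range of 0.725 to 1.17 FPKM.

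S1PR3 (ENSG00000213694), on the plus strand of chromosome 9 from 88990863 to 89005155, encodes a receptor that couples to Gi, Gq and G12/13. RefSeq gives 2 start sites, at 88990863 and 88991468, whose windows are shown because they differ in composition. They are chr9:88990613-88990912 and chr9:88991218-88991517 on the plus strand.
S1PR3 upstream: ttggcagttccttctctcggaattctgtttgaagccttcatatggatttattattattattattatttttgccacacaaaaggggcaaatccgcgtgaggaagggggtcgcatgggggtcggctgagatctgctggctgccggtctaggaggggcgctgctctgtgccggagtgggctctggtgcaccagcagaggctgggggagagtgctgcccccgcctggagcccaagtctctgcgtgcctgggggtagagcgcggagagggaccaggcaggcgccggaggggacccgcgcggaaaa
S1PR3 downstream: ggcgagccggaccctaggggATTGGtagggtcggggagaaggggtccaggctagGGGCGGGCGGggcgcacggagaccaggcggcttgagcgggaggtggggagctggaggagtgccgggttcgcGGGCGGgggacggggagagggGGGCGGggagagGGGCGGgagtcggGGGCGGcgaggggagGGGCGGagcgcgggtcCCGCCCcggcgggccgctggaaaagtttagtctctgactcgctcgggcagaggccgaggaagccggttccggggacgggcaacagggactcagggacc
The upstream window held none of the 6 motifs and had a GC content of 60%. The downstream window held 8 GC boxes, of which the first pair overlap, and 1 CCAAT box on the other strand, with a GC content of 75.3%. At least 1 GC box is present in 45% of all windows. No measurement here tells from which start the transcripts came.

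S1PR3 was measured at 0.899, 1.00 and 0.753 FPKM in NC and at 0.244, 0.307 and 0.266 FPKM in siGDF15. The groups did not overlap, and the highest siGDF15 library was below the lowest NC library by more than the whole range of NC. The means were 0.885 ± 0.125 and 0.272 ± 0.0321 FPKM (SD, n = 3), a 3.25-fold lower level in siGDF15. With a mean under 1 FPKM, S1PR3 was not among the 11867 genes tested. In the fit over the 19360 genes with a mean of at least 0.1 FPKM, of which 42.2% were called, its log2 fold change was -1.62 (standard error 0.143). In that fit 6 of the 9 members were called, 2 higher and 4 lower, with S1PR3 among the lower. Leaving out any 1 library kept the value of S1PR3 between -1.72 and -1.53. The values rest on 194 to 258 read pairs in NC and 61 to 68 in siGDF15, over an annotated transcript (ENST00000375846.3) of 8505 bases.

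S1PR5 (ENSG00000180739), a Gi- and G12/13-coupled receptor best known from natural killer cells and oligodendrocytes, lies on the minus strand of chromosome 19 from 10512742 to 10517931. Of its 2 RefSeq windows, the upstream one, chr19:10517916-10518215 on the minus strand, is shown for comparison with S1PR1 and S1PR3.
S1PR5: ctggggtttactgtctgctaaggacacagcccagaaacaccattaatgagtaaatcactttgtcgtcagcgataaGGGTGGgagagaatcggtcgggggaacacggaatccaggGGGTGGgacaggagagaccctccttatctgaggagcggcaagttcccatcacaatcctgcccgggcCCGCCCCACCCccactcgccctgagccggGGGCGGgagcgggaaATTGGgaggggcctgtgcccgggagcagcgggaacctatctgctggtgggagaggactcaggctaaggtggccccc
This window held 3 CACCC boxes, 2 GC boxes and 1 CCAAT box on the other strand. The CACCC and GC boxes share a base where 1 of each meets. None of the 4 windows printed held a TATA box, an E-box or an AP-1 site, which 11.5%, 7.26% and 7.71% of all windows hold.

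S1PR5 was the highest receptor gene in NC, at 2.45, 2.53 and 2.52 FPKM, and was at 1.39, 1.66 and 1.79 FPKM in siGDF15. All 3 siGDF15 libraries were below NC, with a wider spread among them than among the NC libraries. The means were 2.50 ± 0.0449 and 1.62 ± 0.205 FPKM (SD, n = 3), and the log2 fold change was -0.52 (standard error 0.137). The coefficient of variation was 1.80% in NC and 12.7% in siGDF15. The values rest on 130 to 133 read pairs in NC and 68 to 94 in siGDF15. Over all settings the log2 fold change of S1PR5 ranged from -0.63 when counts were scaled by their total to -0.42 without siGDF15 replicate 1. Among tested genes its profile was closest to those of C2CD2L (distance 0.0471), the pseudogene PKD1P4 (0.0540) and the mitochondrial tRNA gene MT-TM (0.0550). Their log2 fold changes were -0.51, -0.55 and -0.48, near that of S1PR5, and shared regulation was not tested. The value of PKD1P4 is uncertain, since reads may be shared with PKD1 and its other copies. C2CD2L went from 1.83 ± 0.0264 to 1.20 ± 0.182 FPKM (SD, n = 3).

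S1PR2 (ENSG00000267534), on the minus strand of chromosome 19 from 10221433 to 10231331, encodes a receptor that couples mainly to G12/13. It is the only member whose 3′UTR held the 7 bases CTCATTC, the complement of bases 2 to 8 of the siGDF15 antisense strand. This seed match was present in the 3′UTR of 1185 of 10562 tested genes with a coding transcript (11.2%). The site starts at base 1241 of the 3′UTR of transcript ENST00000646641.1, at chr19:10222588-10222612 on the minus strand of GRCh38 with 9 bases on each side, and capitals mark the match.
S1PR2 site: ggtccattcCTCATTCtcagacctc
S1PR2 was measured at 1.17, 0.993 and 0.725 FPKM in NC and at 0.895, 1.05 and 0.964 FPKM in siGDF15. The siGDF15 libraries fell inside the range of the NC libraries. The means were 0.962 ± 0.223 and 0.969 ± 0.0770 FPKM (SD, n = 3), and the log2 fold change was 0.09 (standard error 0.197) in the fit over genes of at least 0.1 FPKM. Its sign turned to -0.07 without NC replicate 3, and no direction is given. The values rest on 50 to 80 read pairs, and its coefficient of variation in NC, 23.2%, was the highest of the 9 members.

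The annotated span of DNMT1, the maintenance DNA methyltransferase, covers S1PR2 on the same strand over 9854 bases. DNMT1 went from 19.8 ± 0.998 to 8.08 ± 0.635 FPKM (SD, n = 3) and fell by 1.19 on the log2 scale (edgeR's adjusted p = 2.8e-06). How far reads of DNMT1 transcripts entered the value of S1PR2 was not tested.

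Read per length, the order of receptor levels in NC was S1PR5, then S1PR2 and S1PR3, whose libraries overlapped, then S1PR1. In siGDF15 it was S1PR1, S1PR5, S1PR2 and S1PR3, with no overlap between neighbours. The lymphoid receptor gene S1PR4, not a member, had 0 to 10 counts in every library, under the limit that a count of 0 allows, and was not detectable at this depth. Of the summed FPKM of the 5 receptor genes, S1PR1 held 9.57, 8.68 and 7.14% in NC and 49.8, 46.4 and 46.8% in siGDF15. S1PR5 held 52.4 ± 4.93% in NC and 29.3 ± 1.61% in siGDF15, and S1PR3 held 18.4 ± 1.37% and 4.95 ± 0.455% (SD, n = 3). The share of S1PR2 was 19.9 ± 3.29% and 17.6 ± 1.04%. S1PR5 thus held the most of the receptor messages in NC and S1PR1 in siGDF15. The sum itself went from 5.01, 5.02 and 4.33 FPKM in NC to 5.04, 5.63 and 5.83 FPKM in siGDF15, where replicate 1 was just above the highest NC library. The ratio of S1PR1 to S1PR3 went from 0.459 ± 0.0652 to 9.70 ± 1.02 and that of S1PR1 to S1PR5 from 0.164 ± 0.0372 to 1.63 ± 0.151 (SD, n = 3). A share of messages is not a share of receptor protein, which these files do not measure. A figure legend of the study names a western blot of S1PR1 in control and knockdown cells where its text describes GDF15, and this blot was not analysed here.

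**Figure D2:**
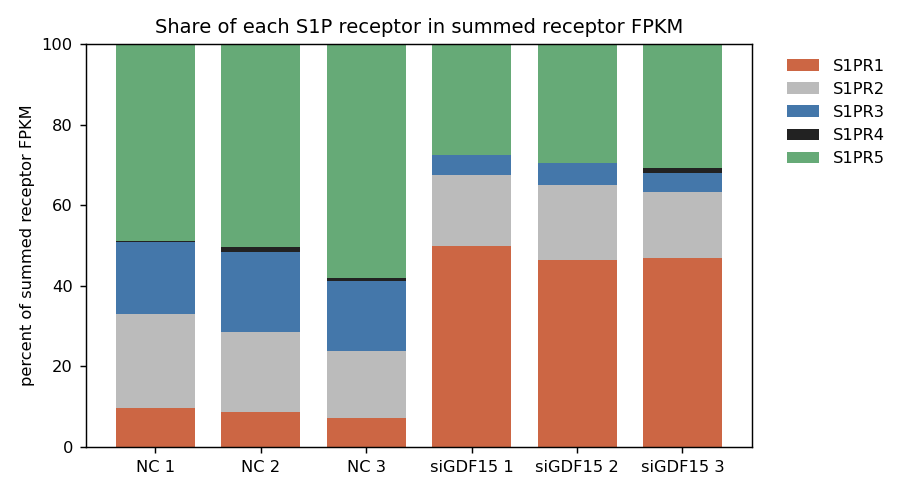
Percent of the summed FPKM of the 5 S1P receptor genes held by each gene, with 1 stacked bar per library. S1PR1 takes 7.14 to 9.57% of the NC bars and 46.4 to 49.8% of the siGDF15 bars, while S1PR5 and S1PR3 take smaller parts in siGDF15 than in NC.

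SPHK1 (ENSG00000176170) encodes the largely cytosolic sphingosine kinase that moves to the plasma membrane on stimulation. It was measured at 9.92, 8.76 and 11.3 FPKM in NC and at 6.77, 6.92 and 6.88 FPKM in siGDF15. The groups did not overlap, and the siGDF15 libraries lay within a narrow band. The means were 10.0 ± 1.30 and 6.85 ± 0.0794 FPKM (SD, n = 3), and the log2 fold change was -0.44 (standard error 0.0953). SPHK1 lies on the plus strand of chromosome 17 from 76376584 to 76387860 and overlaps PRPSAP1, which is on the other strand, over 7901 bases. PRPSAP1 had 5.73 ± 0.0595 and 4.05 ± 0.170 FPKM (SD, n = 3), also lower in siGDF15. The libraries kept strand, but whether the counting used it is not stated, so reads of the overlap may not be told apart.

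SPHK2 (ENSG00000063176), the kinase found mainly in the nucleus and in mitochondria, was measured at 3.28, 3.32 and 3.84 FPKM in NC and at 2.90, 2.54 and 2.88 FPKM in siGDF15. All siGDF15 libraries were below all NC libraries, by a narrow margin. The means were 3.48 ± 0.313 and 2.77 ± 0.204 FPKM (SD, n = 3), and the log2 fold change was -0.23 (standard error 0.0885). SPHK2 was not called with TMM and all 6 libraries in edgeR and was called in 5 of the 14 other settings. It lies on the plus strand of chromosome 19 from 48619291 to 48630717, and DBP and ENSG00000268093 overlap it on the other strand. The summed FPKM of the kinase genes was 13.2, 12.1 and 15.2 in NC and 9.66, 9.45 and 9.76 in siGDF15, with no overlap. The ratio of SPHK1 to SPHK2 was 2.87 ± 0.204 in NC and 2.48 ± 0.213 in siGDF15 (SD, n = 3), with libraries that overlapped.

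SGPP1 (ENSG00000126821), which encodes the endoplasmic reticulum phosphatase that returns S1P to sphingosine, lies on the minus strand of chromosome 14 from 63684216 to 63728065. It was measured at 8.57, 8.39 and 8.46 FPKM in NC and at 6.83, 5.81 and 6.75 FPKM in siGDF15. The groups did not overlap, and siGDF15 replicate 2, the library with the lowest total, was the lowest. The means were 8.47 ± 0.0891 and 6.46 ± 0.568 FPKM (SD, n = 3), and the log2 fold change was -0.29 (standard error 0.0700), and -0.22 without siGDF15 replicate 2.

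SGPL1 (ENSG00000166224), the lyase that removes S1P from the sphingolipid pool, lies on the plus strand of chromosome 10 from 70815905 to 70881184. It was the member with the most even level, at 5.92, 6.20 and 6.10 FPKM in NC and at 6.27, 6.31 and 6.59 FPKM in siGDF15. The siGDF15 libraries were just above the NC libraries. The means were 6.07 ± 0.141 and 6.39 ± 0.172 FPKM (SD, n = 3), a 1.05-fold higher level. The log2 fold change was 0.18 (standard error 0.0461), larger than the FPKM ratio because FPKM is scaled by the library total and the fit by TMM factors. Its call was lost in 5 of the 14 other settings, among them scaling by the total (0.08) and the fit without NC replicate 1 (0.16).

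SPNS2 (ENSG00000183018), the transporter that exports S1P, lies on the plus strand of chromosome 17 from 4498881 to 4539035 and overlaps MYBBP1A on the other strand by 139 bases. It was measured at 0.933, 1.10 and 1.01 FPKM in NC and at 1.21, 1.06 and 1.08 FPKM in siGDF15. The groups overlapped, with means of 1.01 ± 0.0813 and 1.12 ± 0.0847 FPKM (SD, n = 3) and a log2 fold change of 0.25 (standard error 0.137). The values rest on 62 to 94 read pairs per library, and SPNS2 was not called.

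SPHK1 and SGPP1 were also set against SGPL1, library by library. The ratio of SPHK1 to SGPL1 was 1.65 ± 0.225 in NC and 1.07 ± 0.0264 in siGDF15, and that of SGPP1 to SGPL1 was 1.40 ± 0.0474 and 1.01 ± 0.0853 (SD, n = 3). In both ratios the siGDF15 libraries were all below NC. These ratios were not tested and leave out SPHK2 and the second phosphatase gene SGPP2, described with the wider network. Over all 9 members, 7 had groups that did not overlap in FPKM, 2 above and 5 below NC. Of the 7 tested members 6 did not overlap, and 68.4% of all tested genes did not either. As the contrast chose the members, nothing is read from this count.

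**Figure D3:**
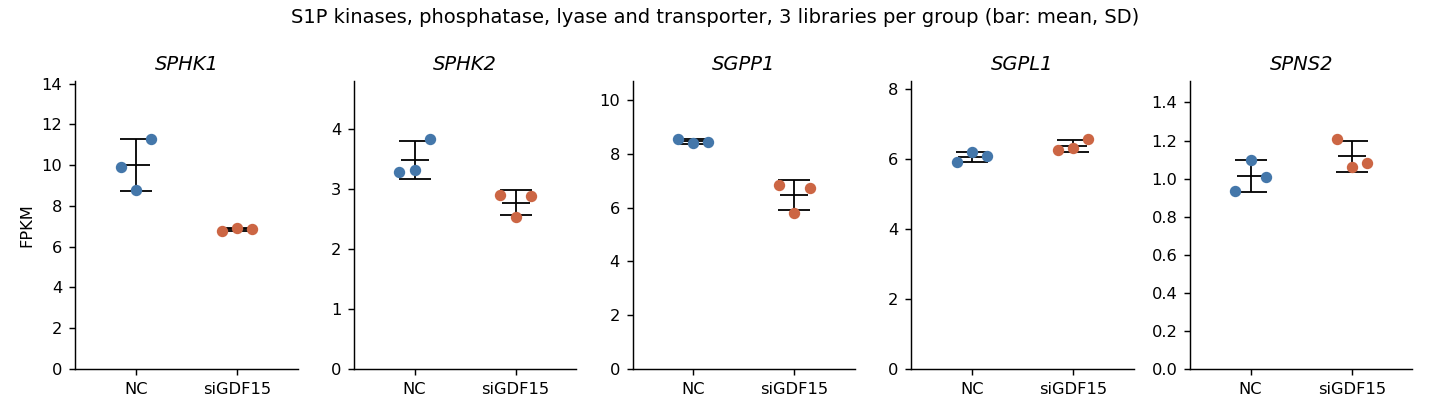
FPKM of the S1P kinase, phosphatase, lyase and transporter genes in each library, with NC in blue and siGDF15 in orange, replicates 1 to 3 from left to right within a group, and bars for the mean and SD (n = 3) on axes that start at 0. The siGDF15 points of SPHK1, SPHK2 and SGPP1 lie below all NC points, those of SGPL1 lie just above them, and those of SPNS2 overlap with NC.

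The members belong to a wider sphingolipid network, given here as 5 lists of other genes, whose adjusted p-values are from edgeR over all tested genes. The lists were chosen with earlier results of these data known, so these p-values are descriptive. Of 75 genes 56 were tested, of which 19 were higher, 20 lower and 17 not called, with a median log2 fold change of -0.01. Over all tested genes 30.0% were higher and 31.4% lower, and the counts of each list are to be read beside these shares. Of the 14 other genes that handle S1P or release sphingosine, 8 were tested, 4 higher, 1 lower and 3 not called, with a median of 0.35. SGPP2, the second S1P phosphatase, went from 0.796 ± 0.0728 to 1.97 ± 0.0758 FPKM (SD, n = 3), opposite to SGPP1, with a log2 fold change of 1.42. It was tested only through its siGDF15 libraries, as its NC mean was under 1 FPKM, so no p-value is given for it. The count of 4 higher genes includes SGPP2. PLPP3, a lipid phosphatase at the cell surface that also acts on S1P, had a log2 fold change of 1.13 (adjusted p = 4.0e-06). ASAH1, the acid ceramidase that releases sphingosine in lysosomes, had 0.75 (adjusted p = 8.6e-05). The gene that fell was ALDH3A2, which oxidizes the fatty aldehyde made by the lyase, with a log2 fold change of -0.80 (adjusted p = 1.8e-05).

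Of the 17 genes of de novo ceramide synthesis, 14 were tested, 5 higher, 7 lower and 2 not called, with a median log2 fold change of -0.14. The ceramide synthase genes were on both sides, with 1.17 for CERS4, -0.90 for CERS6 and -0.60 for CERS1 (adjusted p = 1.8e-04, 1.1e-05 and 0.013 from edgeR). The serine palmitoyltransferase subunit gene SPTLC2 had 0.66 (adjusted p = 9.7e-06), the regulator gene ORMDL2 had 0.37 and the reductase gene KDSR had -0.42. Of the 15 genes of ceramide, sphingomyelin and glycosphingolipid turnover, 13 were tested, 5 higher, 3 lower and 5 not called, with a median of 0.01. UGCG, which makes glucosylceramide, went from 22.3 ± 2.21 to 50.6 ± 0.964 FPKM and SMPD1, the acid sphingomyelinase, from 13.8 ± 1.29 to 28.5 ± 0.283 FPKM (SD, n = 3). Their log2 fold changes were 1.29 and 1.15 (adjusted p = 2.8e-06 and 3.2e-06). The ceramide transfer gene CERT1 had 0.93, the galactosylceramide synthase gene UGT8 had -0.85, the ceramide kinase gene CERK had -0.56 and SMPD4 had -0.22. The call of SMPD4 was lost with median scaling (-0.16), without NC replicate 1 (-0.17) and without siGDF15 replicate 1 (-0.18).

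Of the 22 genes of G proteins and effectors that act below S1P receptors and many others, 19 were tested, 4 higher, 9 lower and 6 not called, with a median log2 fold change of -0.15. Of the 4 phospholipase C beta genes listed, only PLCB3 and PLCB4 were tested, and they changed in opposite directions. PLCB4 went from 3.76 ± 0.957 to 10.1 ± 0.352 FPKM and PLCB3 from 15.1 ± 0.315 to 6.91 ± 0.199 FPKM (SD, n = 3), with log2 fold changes of 1.52 and -1.02 (adjusted p = 6.9e-05 and 1.2e-06). The receptor kinase gene GRK2 and the arrestin gene ARRB2, whose products desensitize and internalize receptors, fell by 0.64 and 0.61 on the log2 scale (adjusted p = 3.9e-05 and 3.6e-04), while ARRB1 had 0.37 (adjusted p = 0.011), a call lost with limma (0.23 and 0.27). RAC1 had 0.13 (adjusted p = 0.024), a call lost in 8 of the 14 other settings, among them the fits without NC replicate 1 (0.12), without siGDF15 replicate 2 (0.12) and without siGDF15 replicate 3 (0.13). For comparison with another lysophospholipid, 2 of the 7 genes of lysophosphatidic acid receptors and autotaxin were tested. LPAR1 had a log2 fold change of 0.67 (adjusted p = 2.4e-05), and the other, LPAR2, was not called.

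**Figure D4:**
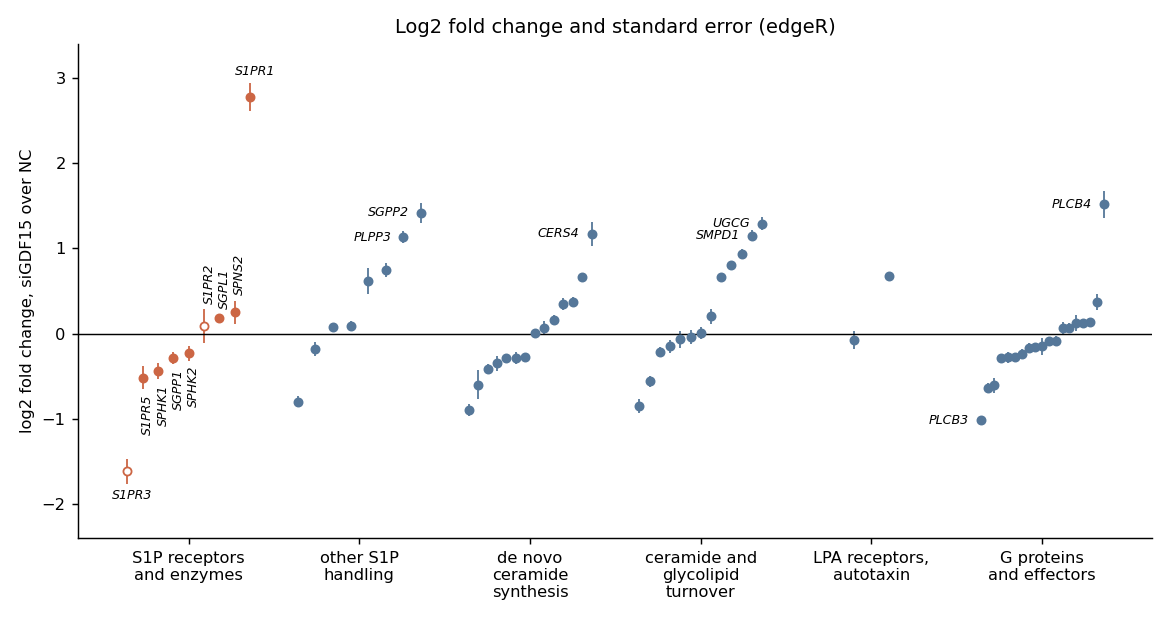
Log2 fold change of siGDF15 over NC with its standard error for the members (orange) and for the tested genes of 5 lists of other genes (blue), ordered by value within each list. S1PR1 lies at 2.78, above every other gene shown, and open symbols mark S1PR3 and S1PR2, whose values come from the fit with the lower filter.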

How the data were processed

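Poly(A) RNA of 6 libraries (NC and siGDF15, 3 biological replicates each) was sequenced by the authors as strand-marked read pairs of 150 bases. Processing notes of the submitters name fastp, HISAT2, StringTie, edgeR and build GRCh38, and versions are not given in the sources used here. The authors deposited FPKM values and whole-number expected counts, which StringTie derives from coverage, per gene. Columns of the authors' own comparison were not used. Symbols and coordinates are those of the deposited table, and transcripts are those of GENCODE release 29.

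Counts were tested with edgeR 4.0.16 (TMM, quasi-likelihood test, two-sided, Benjamini-Hochberg adjustment, threshold 0.05) in R 4.3.3 over genes with a mean of at least 1 FPKM, after the procedure was tested on simulated data. FPKM gave the levels per library. Alternatives were total count scaling, median scaling, DESeq2 1.42.0, limma 3.58.1 with pseudocounts of 1 and 0.1, a filter of 0.1, no filter, a replicate block and each library left out. The members and lists were chosen with earlier results of these data known. Named were all members, GDF15, the 3 largest called changes per list and direction, every called list gene whose log2 fold change reached 1 or -1, and the 3 nearest profiles of the tested members at both ends. DNMT1, PRPSAP1, DBP, MYBBP1A, S1PR4 and LPAR2 are named besides for a result that turns on them. The listed genes ACER1 and TSHR were not analysed here, and some items are not reported here.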

Additional observations from a re-analysis of the deposited data

How the results depend on the processing

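Over 14 other settings and 2 kinds of fit added after seeing the data (leaving out libraries and scaling by the total, both with a mean of at least 0.1 FPKM, for S1PR2 and S1PR3), 426 of 450 log2 fold changes kept their direction and their side of the threshold, and 102 of 112 counts of calls stayed within 1.5 times the reported count. S1PR1, S1PR5, SPHK1, SGPP1 and GDF15 were called under all of 14 other settings and SPNS2 under none. S1PR1 reached the mean of 1 FPKM only through the siGDF15 libraries, and the settings share the same libraries. As the members were chosen with the contrast known, nothing is read from their calls. Only 1 member, S1PR1, was called higher under scaling by the total count, limma with either pseudocount and no filter, and leaving out each library in turn gave 1 to 2, with 1 without NC replicate 1. SGPL1 was the gene that left the calls, with values from 0.06 to 0.23. SPHK2 was called under total count scaling (-0.33), DESeq2 (-0.22), limma (-0.25 and -0.32) and without NC replicate 2 (-0.26). S1PR2 turned to -0.07 without NC replicate 3. Of all tested genes past both thresholds, 360 were higher and 567 lower. The higher count was 131 with limma on log2(FPKM + 1), 817 with a mean of at least 0.1 FPKM and 800 with no filter, and the lower count was 852 and 859 with these filters, under which more genes were tested. Higher genes made up 48.9% of all calls, 36.6% with total count scaling and 55.8% with median scaling, and total count scaling moved the median log2 fold change of all tested genes to -0.0992. The cause of these shifts was not tested.

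Libraries with the same replicate number did not deviate together (correlations across genes of 0.0272, -0.0693 and 0.0503), so the numbers were not taken to pair samples. With a replicate block 3391 genes were called higher and 3515 lower, against 3565 and 3721, and the members called were 2 higher and 3 lower as before. From 31 to 94 read pairs lie behind each value of S1PR1 in NC, of S1PR3 and S1PR5 in siGDF15, and of S1PR2 and SPNS2 in both groups. The replicates are biological per the study's methods, from 1 line and 1 siRNA.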
